A study of Mus musculus with 6 samples.

Results

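The BCL2 family was followed through 10 genes: the pro-survival genes Bcl2, Bcl2l1 and Mcl1, the BH3-only death genes Bcl2l11, Bmf, Bbc3, Pmaip1 and Bid, and the effector genes Bax and Bak1. They were taken by gene symbol, and all 10 were among the 49997 gene symbols of the count table. Mcl1 had the most counts of the family, and Bcl2 itself was almost without counts. None of the 8 members with enough counts to be tested passed an adjusted p of 0.05 between the genotypes with edgeR (the threshold used throughout), which 1.69% of all tested genes did. RNA came from small pre-B cells purified by flow cytometry from the bone marrow of C57BL/6 mice aged 6 to 12 weeks. The mice were wild type (WT, 3 libraries) or carried the ΔrsCBE genotype (3 libraries), a deletion whose interval the labels do not give. The labels do not say whether a library is 1 mouse or a pool. P-values therefore measure the spread between these libraries, which may be technical. ΔrsCBE replicate 1 differed in sex pattern from replicates 2 and 3 (below), so the ΔrsCBE libraries do not all come from the same mouse or pool.

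The BCL2 family decides whether a cell opens its mitochondria and dies. Pro-survival proteins hold the effectors BAX and BAK in check, BH3-only proteins occupy the pro-survival proteins or activate the effectors, and open mitochondria release cytochrome c, which starts the caspases. In bone marrow, B-cell precursors depend on this balance: interleukin-7 signals favour MCL1 and BCL2, BIM (encoded by Bcl2l11) is a main killer of unwanted lymphocytes, and BCL-XL (encoded by Bcl2l1) is known for its place at the pre-B stage, where light chain genes are rearranged. Several of these genes make splice forms with opposite or graded action, such as BCL-XL and BCL-XS, and counts per gene do not separate them.

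Total counts ranged from 428106 to 1300805 per library, and the detection floor of 3 counts was 2.32 to 7.17 CPM (read counts relative to the library total, scaled by a TMM factor that corrects for composition). The 12 markers chosen for pre-B cells were all tested and summed to 12543 to 14715 CPM in WT and 13552 to 14053 CPM in ΔrsCBE, led by Rag1, Pax5 and Cd24a. With edgeR 0 of them passed the threshold, and 4 had an unadjusted p under 0.05, beside 10.2% of all tested genes. Of these, Cd24a and Cd79a were lower and Vpreb3 and Blnk higher in ΔrsCBE. Of 10 T and NK cell markers 8 were at 0, of 8 erythroid markers 7 were at 0, and both lists summed to at most 2.46 CPM in any library. The 9 myeloid markers summed to 54.8 to 86.0 CPM in WT and 59.0 to 72.5 CPM in ΔrsCBE, led by Itgam, with Elane and S100a8 at 0. Within that list Lyz2 and S100a9 had 0 counts in each WT library, and 2, 4 and 2 (Lyz2) and 2, 1 and 3 (S100a9) in ΔrsCBE replicates 1 to 3; their part in the members' values was not tested. The 5 pro-B and large pre-B markers (Igll1, Vpreb1, Vpreb2, Dntt and Kit) summed to 4.74 to 11.9 CPM in WT and 3.02 to 9.44 CPM in ΔrsCBE, with Vpreb2 at 0. The 8 mature B and plasma cell markers were not near 0. They summed to 388 to 475 CPM in WT and 399 to 448 CPM in ΔrsCBE, led by Cd22. Xist and Y-linked counts gave a male pattern in all 3 WT libraries and in ΔrsCBE replicate 1, and a female pattern in ΔrsCBE replicates 2 and 3. Genotype and sex are therefore partly confounded, and values without the female-pattern libraries are given for the members they move most.

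Promoters of 3 members are shown because the results turn on these genes: Mcl1 is the most abundant member and the 1 tested member whose groups did not overlap, and Bcl2l11 and Bmf are the BH3-only genes with the most counts. Each line gives the 250 bases before the RefSeq start site (GRCm38.p6), 5′ to 3′ on the gene's strand. Capitals mark matches, on either strand, to the motifs searched: TGTTTAC for FOXO factors, TGANTCA for AP-1, GGGCGG for the GC box and CAGCTG for E-proteins such as E2A.
Mcl1, chr3:95658471-95658720, plus strand: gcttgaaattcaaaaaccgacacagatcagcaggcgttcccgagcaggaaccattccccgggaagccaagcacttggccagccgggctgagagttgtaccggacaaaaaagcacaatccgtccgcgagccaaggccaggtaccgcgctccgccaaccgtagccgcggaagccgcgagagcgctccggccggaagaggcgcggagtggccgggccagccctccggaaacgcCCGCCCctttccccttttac
Bcl2l11, chr2:128125788-128126037, plus strand: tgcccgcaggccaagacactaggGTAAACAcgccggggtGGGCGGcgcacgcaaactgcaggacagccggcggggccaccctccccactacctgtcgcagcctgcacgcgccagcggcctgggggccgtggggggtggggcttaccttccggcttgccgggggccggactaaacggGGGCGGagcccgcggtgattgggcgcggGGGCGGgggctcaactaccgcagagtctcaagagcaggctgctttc
Bmf, chr2:118549687-118549936, minus strand: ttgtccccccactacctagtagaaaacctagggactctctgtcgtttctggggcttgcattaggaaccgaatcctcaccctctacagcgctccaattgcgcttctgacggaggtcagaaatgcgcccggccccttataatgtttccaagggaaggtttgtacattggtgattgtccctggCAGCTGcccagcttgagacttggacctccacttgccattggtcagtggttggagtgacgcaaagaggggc

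The Mcl1 window held 1 GC box, in reverse orientation, that began 20 bases before the start. The Bcl2l11 window held 3 GC boxes and 1 FOXO match, in reverse orientation, that began 227 bases before the start. FOXO factors are known activators of Bcl2l11 when growth factor signals are low. The Bmf window held neither of these and had 1 E-box, 70 bases before the start. The RefSeq table had 16 start sites for 9 of the 10 members, all except Pmaip1. Of these 16 windows, 9 held the GC box, 3 the E-box (all of Bmf), 2 the FOXO motif (1 each of Bcl2l11 and Bbc3) and 0 the AP-1 motif. Over all 32851 windows of this length the shares were 32.7% for the GC box, 13.0% for the E-box, 3.17% for the FOXO motif and 6.75% for the AP-1 motif. The windows of 1 gene can overlap, the motifs do not overlap one another in the sequences printed, and a match describes the letters only.

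Levels of different members were compared per length, as CPM per kilobase of annotated exon (GENCODE M21). Mcl1, whose short-lived protein must be made continuously, was the highest member in each library, at 136 to 199.9 CPM per kilobase. Bcl2l1 followed at 51.1 to 71.0 and Bmf at 25.7 to 37.9 CPM per kilobase, and these 3 ranges did not overlap one another or that of the next gene. Bcl2l11 had 6.52 to 16.02, Bax 6.06 to 12.5, Bak1 7.53 to 10.9, Pmaip1 4.95 to 9.33 and Bbc3 2.25 to 8.33 CPM per kilobase, and each of these ranges overlapped that of the next gene in the order. Bid had 0.692 to 4.71 CPM per kilobase and also overlapped its neighbours. Bcl2 was last, at 0 to 0.783 CPM per kilobase. The order of the 10 genes was the same when the longest transcript was used as the length, although Bid then no longer overlapped Bcl2. The gene models used for counting are not given in the sources used here, so lengths may differ from those counted over.

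**Figure D1:**
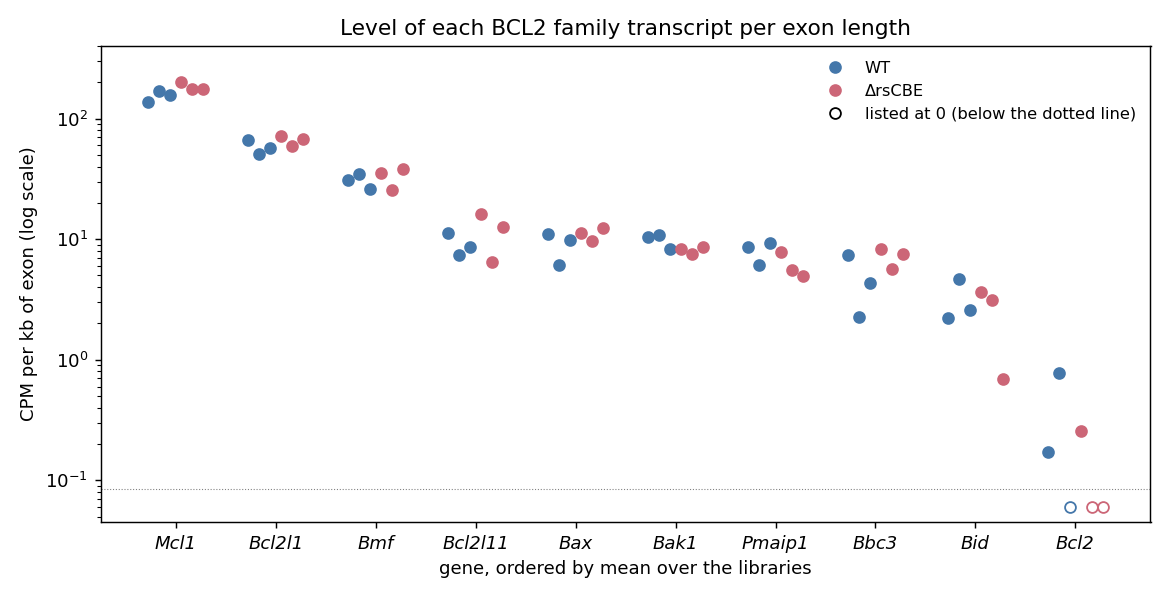
CPM per kilobase of annotated exon (log axis) for the 10 members, 1 point per library, WT in blue and ΔrsCBE in red; open points below the dotted line are libraries listed at 0. Mcl1 lies at 136 to 199.9, Bcl2l1 and Bmf follow without overlap, and Bcl2 has 3 libraries at 0.

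The pro-survival genes included both the highest and the lowest member per length. Bcl2, the founding member, which blocks apoptosis at the mitochondrial membrane, had 1, 3 and 0 counts in WT replicates 1 to 3 and 2, 0 and 0 counts in ΔrsCBE replicates 1 to 3. That is 6 counts among 4998109, with an exact Poisson 95% interval of 2.20 to 13.1 that covers counting error only. No library exceeded 3 counts, and a difference between the genotypes was not detectable at this depth. Bcl2 lies on chromosome 1, 106538178 to 106714274, minus strand (GRCm38), and 6.1% of its annotated exon bases overlap D630008O14Rik on the opposite strand.

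Mcl1 (chromosome 3, 95658788 to 95663176, plus strand) had CPM values of 464, 576 and 540 (WT replicates 1 to 3) and 683, 596 and 597 (ΔrsCBE replicates 1 to 3). All 3 ΔrsCBE libraries were above all 3 WT libraries, with ΔrsCBE replicates 2 and 3 closest to WT replicate 2. The means were 527 ± 56.9 and 625 ± 49.99 CPM (SD, n = 3), and the log2 fold change was 0.25 ± 0.11 (SE), with a 95% interval from 0.02 to 0.48. Mcl1 did not pass the threshold (edgeR adjusted p = 0.406, unadjusted p = 0.0318). Among all 7792 tested genes 16.2% had groups that did not overlap and 10.2% had an unadjusted p under 0.05, and Mcl1 was the 1 member of 8 tested on either count. Without the female-pattern libraries, where ΔrsCBE replicate 1 stands alone, its log2 fold change was 0.38 (edgeR adjusted p = 0.188).

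Bcl2l1 (chromosome 2, 152780668 to 152831728, minus strand) had CPM values of 305, 234 and 259 (WT replicates 1 to 3) and 326, 274 and 308 (ΔrsCBE replicates 1 to 3). The groups overlapped, since WT replicate 1 lay above ΔrsCBE replicate 2. The means were 266 ± 35.8 and 303 ± 26.4 CPM (SD, n = 3), a log2 fold change of 0.18 ± 0.13 (SE), with a 95% interval from -0.09 to 0.44 (edgeR adjusted p = 0.710). It was 0.12 without WT replicate 2, 0.28 without WT replicate 1 and 0.29 without the female-pattern libraries (edgeR adjusted p = 0.567).

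By counts, the BH3-only genes fell into 2 with many (Bmf and Bcl2l11) and 3 with few. Per length only Bmf stood apart, since the range of Bcl2l11 overlapped those of Pmaip1 and Bbc3. Bmf, whose protein is held at the cytoskeleton and released by stress, was the most abundant, with CPM values of 161, 182 and 136 (WT replicates 1 to 3) and 184, 135 and 199 (ΔrsCBE replicates 1 to 3). ΔrsCBE replicate 2 was the lowest of the 6 libraries and ΔrsCBE replicate 3 the highest, so the WT range lay inside that of ΔrsCBE. The log2 fold change was 0.14 ± 0.16 (SE), with a 95% interval from -0.19 to 0.48 (edgeR adjusted p = 0.841). It was 0.02 without WT replicate 3, 0.02 without ΔrsCBE replicate 3, 0.24 without WT replicate 2 and 0.30 without ΔrsCBE replicate 2. Without the female-pattern libraries it was 0.25 (edgeR adjusted p = 0.718).

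Bcl2l11 (chromosome 2, 128126038 to 128162547, plus strand) had CPM values of 90.0, 59.7 and 69.5 (WT replicates 1 to 3) and 129, 52.3 and 102 (ΔrsCBE replicates 1 to 3). In ΔrsCBE, replicates 1 and 3 lay above all WT libraries and replicate 2 lay below all of them. Within ΔrsCBE the highest library had 2.46 times the lowest, and the coefficient of variation was 41.0%, where counting error alone would give 11.1%. In WT these were 1.51 times, 21.2% and 14.7%. The means were 73.1 ± 15.5 and 94.3 ± 38.7 CPM (SD, n = 3), a log2 fold change of 0.34 ± 0.27 (SE), with a 95% interval from -0.23 to 0.91 (edgeR adjusted p = 0.751).

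The value for Bcl2l11 turned on single libraries. Without ΔrsCBE replicate 1 its log2 fold change was 0.04 (edgeR adjusted p = 0.980), and without ΔrsCBE replicate 2 it was 0.65 (edgeR adjusted p = 0.0871). Without both female-pattern libraries it was 0.81, and Bcl2l11 passed the threshold there (edgeR adjusted p = 0.0471), with ΔrsCBE replicate 1 as the sole library of its genotype and assumed to vary like WT. With sex as a covariate, which rests the genotype effect on that same library, it was 0.80 (edgeR adjusted p = 0.215).

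Replicate 2 also stood apart from the other ΔrsCBE libraries in 2 lists, of which some genes passed the threshold. Over the whole table, by contrast, ΔrsCBE replicates 2 and 3 differed least. Their chi-square over its degrees of freedom was 1.79. It was 2.52 for replicates 1 and 3 and 3.18 for replicates 1 and 2. Among the 8 tested members, ΔrsCBE replicate 2 had the lowest CPM of its group for 7, all except Pmaip1. WT replicate 2 was the lowest of its group for 5. How often each library is lowest over all tested genes was not computed, so these counts are not read as a trait of the family. In ΔrsCBE replicates 1 to 3, Bax had 15, 15 and 16 counts and Bak1 17, 18 and 17, so their order rests on near-equal counts. An early-response list held 13 transcription factor and feedback genes, many but not all of them induced within minutes. It had summed CPM of 3628, 3147 and 3277 (WT replicates 1 to 3) and 6187, 4150 and 5744 (ΔrsCBE replicates 1 to 3). Of its 11 tested genes 3 passed the threshold, all higher in ΔrsCBE, with Jun and Jund among them. A cell-cycle list of 27 genes had summed CPM of 7168, 7865 and 7518 (WT replicates 1 to 3) and 3253, 4850 and 3049 (ΔrsCBE replicates 1 to 3), and 17 of its 24 tested genes passed the threshold, all lower in ΔrsCBE, with Mki67 and Top2a among them. Of all tested genes 0.205% passed as higher and 1.49% as lower. ΔrsCBE replicate 2 was thus the ΔrsCBE library nearest to WT on both lists and the lowest of its group for Bcl2l11 and Bmf. In bulk RNA, fewer cells of a state and less RNA per cell cannot be told apart. The part of these lists, or of sex, in the Bcl2l11 and Bmf values was not tested.

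**Figure D2:**
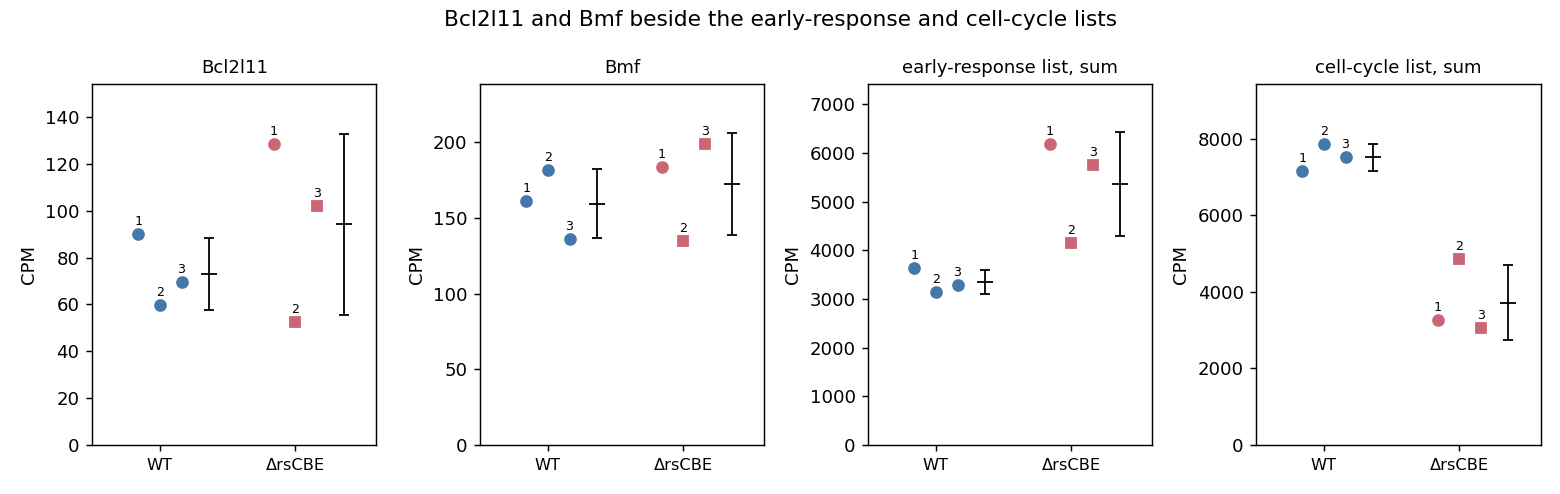
CPM of Bcl2l11 and Bmf and the summed CPM of the early-response and cell-cycle lists (linear axes from 0), 1 point per library with its replicate number, circles for a male and squares for a female pattern, and black bars for mean ± SD. ΔrsCBE replicate 2 is the lowest of its group for Bcl2l11, Bmf and the early-response sum and the highest for the cell-cycle sum.

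The BH3-only genes with few counts were close to the limit of what this depth can resolve. Bbc3 encodes PUMA, a killer induced by p53 and by growth factor loss, and had CPM values of 15.8, 4.78 and 9.27 (WT replicates 1 to 3) and 17.7, 12.1 and 15.97 (ΔrsCBE replicates 1 to 3). The means were 9.95 ± 5.54 and 15.3 ± 2.88 CPM (SD, n = 3), and the log2 fold change of 0.56 had the widest interval of the tested members, from -0.32 to 1.44 (edgeR adjusted p = 0.743). Its WT replicate 2 value rests on 2 counts, and without WT replicate 1 its log2 fold change was 0.91. Without the female-pattern libraries the log2 fold change of Bbc3 was 0.78. Pmaip1 encodes NOXA, which binds MCL1 and promotes its breakdown, and had CPM values of 23.7, 16.7 and 25.5 (WT replicates 1 to 3) and 21.2, 15.1 and 13.5 (ΔrsCBE replicates 1 to 3). Its log2 fold change was -0.47 ± 0.34 (SE), with a 95% interval from -1.16 to 0.23 (edgeR adjusted p = 0.711), and it was -0.12 without the female-pattern libraries.

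Bid, the link from death receptors to the mitochondria once a caspase has cleaved it, stayed below the count filter. It had 5, 7 and 12 counts in WT and 11, 11 and 2 counts in ΔrsCBE replicates 1 to 3. Its mean level was 11.3 ± 4.75 CPM for WT and 8.83 ± 5.60 CPM for ΔrsCBE (SD, n = 3). The groups overlapped (two-sided exact permutation test of the CPM means, p = 0.6, where 3 libraries against 3 cannot go below 0.1). Of its annotated exon bases 17.7% overlap Bcl2l13 on the opposite strand, and whether counting separated the strands there is not given in the sources used here.

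The effectors Bax and Bak1, either of which can form the pores in the outer mitochondrial membrane, had 81 and 105 counts over the 6 libraries. Bax had CPM values of 17.4, 9.56 and 15.4 (WT replicates 1 to 3) and 17.7, 15.1 and 19.7 (ΔrsCBE replicates 1 to 3). The log2 fold change was 0.23 with a 95% interval from -0.51 to 0.98 (edgeR adjusted p = 0.898). It was 0.11 without WT replicate 2 and 0.14 without ΔrsCBE replicate 3. Bak1 had CPM values of 25.3, 26.3 and 20.1 (WT replicates 1 to 3) and 20.1, 18.1 and 20.9 (ΔrsCBE replicates 1 to 3). Its log2 fold change was -0.23 with a 95% interval from -0.89 to 0.43 (edgeR adjusted p = 0.882), and it was -0.38 without WT replicate 3. For both genes the groups overlapped, and the spread within each genotype was below what counting error alone would give (28.8% against 32.6% for Bax and 13.9% against 26.5% for Bak1 in WT). Of the annotated exon bases, 12.2% of Bax overlap Gm45808 on the same strand and 25.5% of Bak1 overlap Ggnbp1 on the opposite strand, and reads there could be lost or assigned to the other gene.

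**Figure D3:**
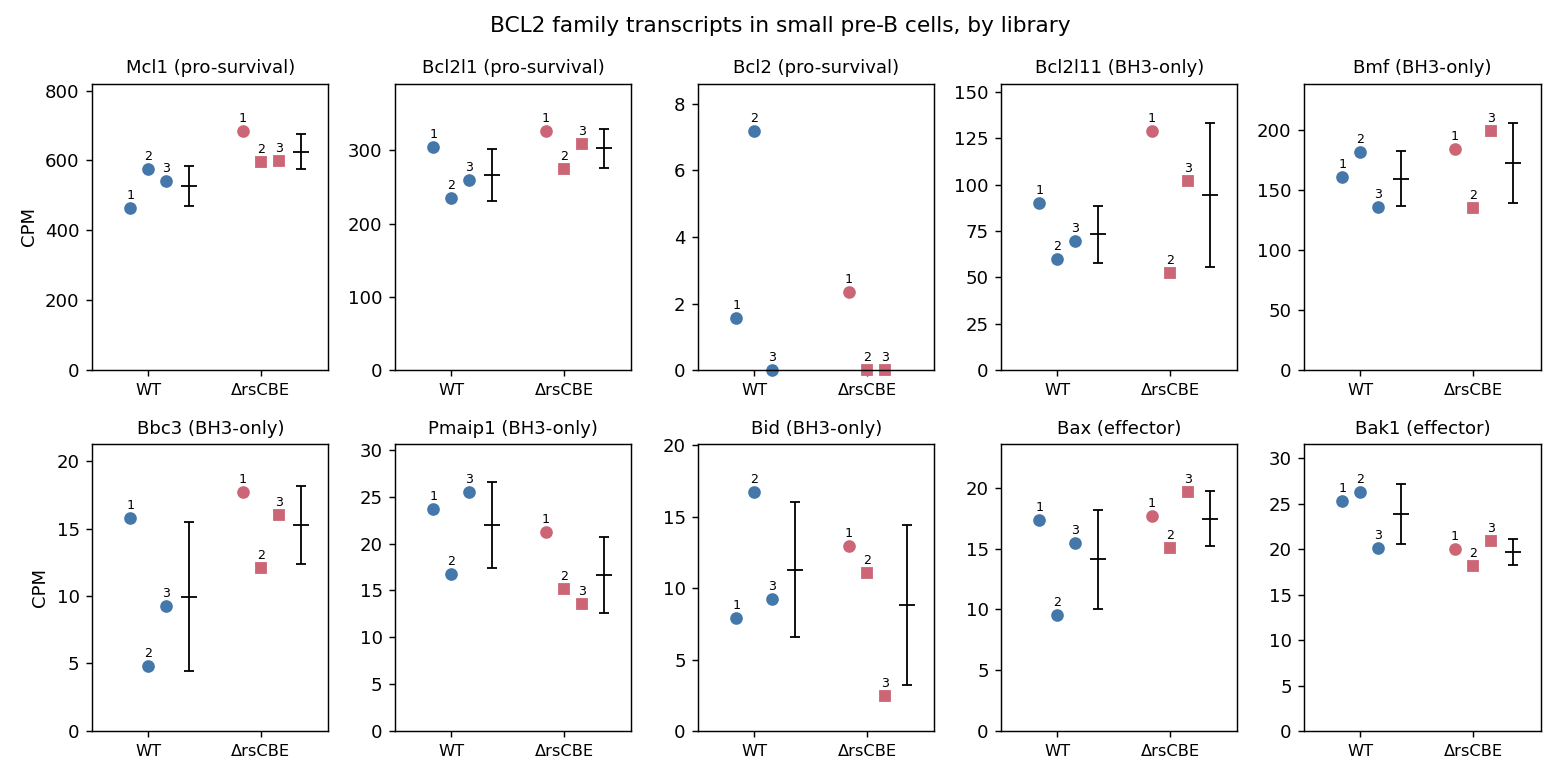
CPM of the 10 members (linear axes from 0), 1 point per library with its replicate number, circles for a male and squares for a female pattern, and black bars for mean ± SD where no library is at 0. The groups are apart for Mcl1 alone, and Bcl2 has at most 3 counts in any library.

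Over the family, 8 of 10 members were tested, Bcl2 and Bid being below the count filter. With edgeR 0 of 8 passed the threshold, beside 132 of all 7792 tested genes (1.69%), 1 had an unadjusted p under 0.05, and the DESeq2 Wald test also called 0. Of the 8, 6 had a log2 fold change above 0 and 2, Pmaip1 and Bak1, below 0, with a median of 0.21 against 0.01 over all tested genes. The 95% intervals bound the differences unevenly: those of Mcl1, Bcl2l1 and Bmf stayed within 1.5-fold in either direction, those of 6 members within 2-fold, and those of Bbc3 and Pmaip1 reached beyond 2-fold. Differences inside each interval are not excluded by these libraries. Depth was not the only limit for Mcl1, Bcl2l1, Bmf and Bcl2l11. Their spread within each genotype was above counting error alone, such as 10.8% against 5.48% for Mcl1 in WT.

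Part of the balance of survival and death transcripts was described by ratios to Bcl2l11 within each library. These ratios leave out Bmf, the most abundant BH3-only gene. The log2 ratio of Mcl1 to Bcl2l11 CPM was 2.37, 3.27 and 2.96 in the WT libraries (replicates 1 to 3) and 2.41, 3.51 and 2.55 in the ΔrsCBE libraries, with means of 2.86 ± 0.46 and 2.82 ± 0.60 (SD, n = 3). That of Bcl2l1 to Bcl2l11 was 1.76, 1.97 and 1.90 in the WT libraries and 1.34, 2.39 and 1.597 in the ΔrsCBE libraries, with means of 1.88 ± 0.11 and 1.77 ± 0.55. Both differences between the means, -0.04 and -0.10, were smaller than the spread within ΔrsCBE. Replicate 2 of ΔrsCBE had the highest of the 6 values in both ratios. Both share Bcl2l11 as the denominator, which was lowest in that library (52.3 CPM), so they are not separate observations. For Bcl2, with 3 libraries at 0, no genotype means of the ratio are given.

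Of 16 further BCL2 family genes 7 were at 0 in each library, among them the 4 Bcl2a1 genes (near-identical copies, whose reads a counter may discard), Bok and Hrk, and 3 passed the count filter. Bcl2l13, a mitochondrial family member linked to mitophagy, averaged 75.3 ± 13.7 CPM (WT) and 60.3 ± 6.20 CPM (ΔrsCBE; SD, n = 3), with -0.28 as its log2 fold change (edgeR adjusted p = 0.694). Bcl2l12 had 16.8 ± 3.31 and 12.3 ± 3.43 CPM (edgeR adjusted p = 0.785), and Bnip3l, a mitophagy receptor, had 95.7 ± 10.2 and 95.6 ± 3.47 CPM (edgeR adjusted p = 0.982). None of the 3 passed the threshold. Below the filter, Bcl2l2, which encodes the pro-survival protein BCL-W, had 3, 2 and 3 counts (WT replicates 1 to 3) and 7, 6 and 6 counts (ΔrsCBE replicates 1 to 3). Its groups did not overlap, at 3.94 ± 1.41 and 7.22 ± 1.12 CPM (SD, n = 3; two-sided exact permutation p = 0.1, the smallest this design allows). It was named after its values were seen.

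Downstream of the mitochondria, 18 of 21 genes for cytochrome c, the apoptosome, caspases and their inhibitors were tested and 0 passed the threshold with edgeR, with 0 at an unadjusted p under 0.05. Their median log2 fold change was -0.01. The highest was Casp9, the initiator caspase of the apoptosome, with CPM values of 31.6, 21.5 and 28.6 (WT replicates 1 to 3) and 40.1, 39.3 and 35.6 (ΔrsCBE replicates 1 to 3). Its groups did not overlap, and the log2 fold change was 0.46 ± 0.26 (SE) (edgeR adjusted p = 0.598). The lowest was Dffb, the nuclease that cuts chromatin in dying cells, with a log2 fold change of -0.62 ± 0.42 (SE) (edgeR adjusted p = 0.673).

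**Figure D4:**
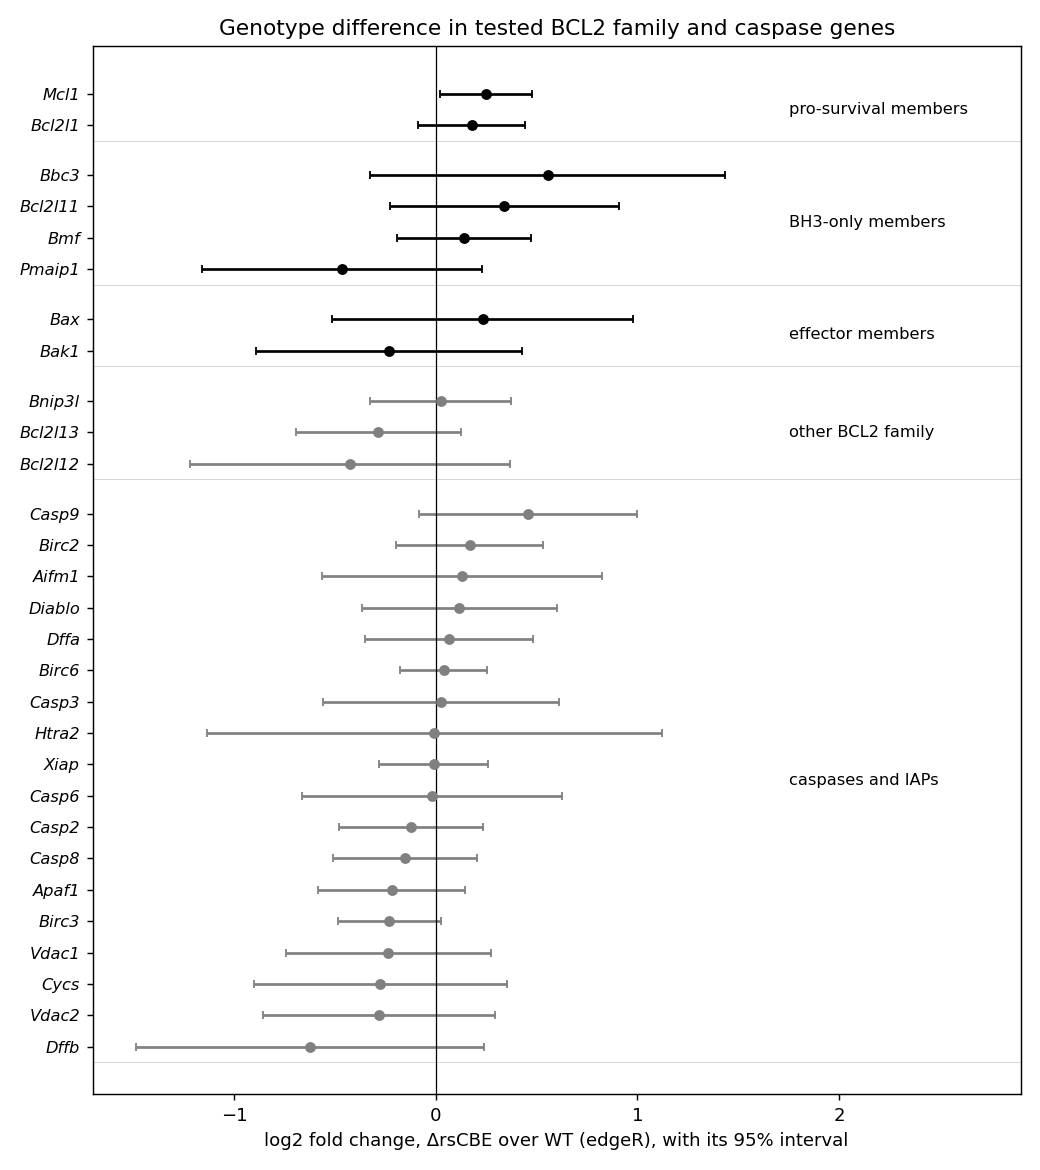
Log2 fold change of ΔrsCBE over WT with its 95% interval (edgeR) for the 8 tested members (black) and for tested genes of the further family and caspase lists (grey). Of the members, the interval of Mcl1 alone lies above 0, and it is unadjusted for the number of genes tested.

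Upstream, 21 of 23 regulators of the family were tested and 0 passed the threshold with edgeR, with 1 at an unadjusted p under 0.05. The median log2 fold change was 0.12. That 1 gene was Stat5a, a carrier of the interleukin-7 signal, with CPM values of 12.6, 23.9 and 17.0 (WT replicates 1 to 3) and 29.5, 28.2 and 27.0 (ΔrsCBE replicates 1 to 3), a log2 fold change of 0.71 ± 0.32 (SE) (edgeR adjusted p = 0.426). Its ΔrsCBE libraries all lay above the WT libraries. The lowest regulator was Mapk3, a kinase whose pathway marks BIM for degradation, at -0.20 on the log2 scale (edgeR adjusted p = 0.925). Of 13 p53 target genes 5 were tested and 0 passed the threshold with edgeR, with 0 at an unadjusted p under 0.05 and a median log2 fold change of -0.10. They ranged from Gtse1, which is also expressed with the cell cycle, at -0.60 (edgeR adjusted p = 0.563) to Aen, an apoptosis-linked nuclease, at 0.19 (edgeR adjusted p = 0.887). The DESeq2 Wald test also called 0 genes in the further family, caspase, regulator and p53 lists.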

How the data were processed

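The deposited table holds raw read counts per gene symbol in 6 libraries, 3 per genotype. Per the labels' protocols, RNA was depleted of ribosomal RNA and a stranded total RNA kit was used. The submitters' processing notes name Trim Galore 0.6.10, STAR 2.7.11, HTSeq, DESeq2 and the mm10 build. The annotation, the strand setting of the counting and any filter are not given in the sources used here. The mm10 build is GRCm38, on which GENCODE M21 gave coordinates, exon lengths and overlaps, and RefSeq (GRCm38.p6) gave promoters.

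Genes were kept by filterByExpr (minimum count 10), scaled by TMM (factors 0.978 to 1.02) and tested with edgeR 4.0.16 (glmQLFit with robust estimation, glmQLFTest) in R 4.3.3, with genotype as the factor. P-values were adjusted over all 7792 tested genes (Benjamini-Hochberg), with a threshold of 0.05, and "passed the threshold" refers to this. Standard errors and 95% intervals come from the quasi-likelihood F statistic. The script was tested on simulated data. CPM values use total counts times TMM factors. Reads carry no stated molecular identifiers, so floors and the Poisson interval cover counting error only. Each pair of replicates differed by more than counting error (chi-square over its degrees of freedom, 1.78 to 3.18).

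The members, gene lists and motifs were chosen with earlier results of these data known. All 10 members are named, with each tested gene of the further family list, the highest and lowest of the caspase, regulator and p53 lists with any gene that passed, and up to 3 abundant genes of the other lists; Vpreb2, Elane, Lyz2, S100a9, S100a8 and the other genes of short lists were named after their values were seen. The list of 8 mature B and plasma cell markers had 4 tested genes, 0 of which passed. Alternatives covered scaling, the DESeq2 1.42.0 Wald test, count filters, the threshold, each library left out, a replicate block, a sex covariate and male-pattern libraries alone.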

Additional observations from a re-analysis of the deposited data

How the results depend on the processing

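The count of 0 members past the threshold was the same under 14 of 15 alternatives and was 1, Bcl2l11, without the female-pattern libraries. The 132 genes past the threshold over the whole table became 87 with the sex covariate and 59 to 187 with 1 library left out (59 without WT replicate 3 and without ΔrsCBE replicate 3); the cause was not tested. No tested member changed the sign of its log2 fold change under any of 14 alternatives. The log2 ratio of Mcl1 to Bcl2l11 (difference of the genotype means) ranged from -0.38 to 0.17 and that of Bcl2l1 to Bcl2l11 from -0.41 to 0.11 with 1 library left out, taking both signs. Replicate numbers are shared between the genotypes. Deviations of same-numbered libraries correlated at 0.0091 to 0.0196, and those of differently numbered libraries at -0.0472 to 0.0345. Such deviations include counting error, so these values cannot show whether the numbers pair the libraries. With the replicate block 136 genes and 0 members passed the threshold. Depth limits Bcl2, Bid, Bbc3, Pmaip1, Bax and Bak1 most.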
